A study of Mus musculus with 9 samples.

Results

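The genes described here are 39 interferon-stimulated genes, chosen by gene symbol from the 49315 genes of the deposited count table. All 39 were in the table, and 37 of them were among the 15963 genes with enough counts to be tested. Ifit3b and Mx1 were not tested because of low counts. The source was ribosome-depleted total RNA from RAW 264.7, a macrophage line of the mouse that forms osteoclast-like cells when given RANKL, the main osteoclast differentiation signal. Every culture received 20 ng/ml RANKL, and 3 groups of 3 libraries were compared. The control group had no further treatment, the pamidronate group received 140 µM pamidronate for 24 hours, and the pamidronate + GGOH group received the same pamidronate dose together with 5.25 µM GGOH. Pamidronate is a nitrogen-containing bisphosphonate that blocks farnesyl diphosphate synthase, and GGOH is geranylgeraniol, an alcohol that cells can turn into the geranylgeranyl group used to anchor small GTPases. The design asks which effects of pamidronate GGOH reverses. The controls are labelled as untreated although RANKL is in the growth protocol of all samples, and no group had GGOH alone or lacked RANKL.

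Interferon-stimulated genes are switched on when type I interferon binds its receptor IFNAR and the kinases JAK1 and TYK2 activate STAT proteins. STAT2 and IRF9 are subunits of the resulting factor ISGF3, which binds the interferon-stimulated response element (ISRE) in target promoters, and IRF3 or IRF7 can act on similar elements directly. In macrophages a low tonic level of interferon signalling keeps many of these genes partly active, and their products sense foreign nucleic acid, block viral replication or adjust the interferon response itself.

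Promoter sequences from RefSeq (GRCm38.p6) were available for 29 of the 39 genes and are shown first because the genes differed in their response while many shared this element. Each window ran from 250 bases before to 50 bases after the RefSeq start. The ISRE was searched as GAAANNGAAA on both strands, so that a match may be printed in its reversed form, with overlapping matches counted. It was present in 16 of the 29 genes (55.2%), against 3.99% of the 27025 genes in the promoter table. A match is a description of the letters and not a shown binding site. Usp18, Oas2, Mx1, Mx2, Dhx58, Zbp1, Ifi204, Ifi27l2a, Parp14 and Rtp4 had no entry.

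Rsad2 and Cmpk2 are neighbours on chromosome 12 that point away from each other, and their RNAs moved in opposite directions. The stretch before the start of Rsad2 (chr12:26456453-26456702, minus strand) held 1 ISRE match at bases -120 to -111, shown in capitals, while the stretch before Cmpk2 (chr12:26468965-26469203, plus strand) held none. Irf7 (chr7:141266482-141266674, minus strand), whose RNA was highest in the pamidronate + GGOH group, held no match either. The stretches of Cmpk2 and Irf7 end before the first exon base of the GENCODE M21 annotation. The longest stretch of letters that the windows of Rsad2 and Cmpk2 had in common was 10 bases.
Rsad2: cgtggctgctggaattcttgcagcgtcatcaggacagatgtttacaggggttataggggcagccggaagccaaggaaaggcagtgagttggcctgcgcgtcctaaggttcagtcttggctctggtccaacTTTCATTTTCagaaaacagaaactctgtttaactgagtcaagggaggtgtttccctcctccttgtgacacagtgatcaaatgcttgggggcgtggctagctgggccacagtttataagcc
Cmpk2: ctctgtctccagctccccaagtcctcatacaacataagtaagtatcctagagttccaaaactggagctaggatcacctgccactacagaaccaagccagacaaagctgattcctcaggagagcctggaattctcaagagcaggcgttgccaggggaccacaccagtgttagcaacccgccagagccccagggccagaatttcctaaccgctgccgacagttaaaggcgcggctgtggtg
Irf7: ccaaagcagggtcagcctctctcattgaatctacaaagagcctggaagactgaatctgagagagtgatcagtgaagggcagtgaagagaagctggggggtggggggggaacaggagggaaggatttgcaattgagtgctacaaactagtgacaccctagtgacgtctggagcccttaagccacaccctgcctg

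The following shorter stretches give the ISRE matches, in capitals, of genes with different responses. Ifit1 (chr19:34640760-34640838, plus strand) and Isg15 (chr4:156200850-156200921, minus strand) rose with pamidronate and had 2 and 3 matches, those of Isg15 overlapping. Stat2 (chr10:128270251-128270310, plus strand) also rose. Oas1a (chr5:120907526-120907570, minus strand), Oas1g (chr5:120887614-120887656, minus strand) and Oas3 (chr5:120777700-120777759, minus strand) did not pass the test with pamidronate and were higher once GGOH was added. Igtp (chr11:58199497-58199555, plus strand) fell with pamidronate. No printed stretch overlaps an annotated exon.
Ifit1: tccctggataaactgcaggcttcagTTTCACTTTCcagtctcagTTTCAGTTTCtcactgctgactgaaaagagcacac
Isg15: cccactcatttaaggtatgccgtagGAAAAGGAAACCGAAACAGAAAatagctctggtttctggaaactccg
Stat2: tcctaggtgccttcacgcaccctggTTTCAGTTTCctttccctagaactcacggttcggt
Oas1a: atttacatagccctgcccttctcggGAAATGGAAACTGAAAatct
Oas1g: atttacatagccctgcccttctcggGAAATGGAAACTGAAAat
Oas3: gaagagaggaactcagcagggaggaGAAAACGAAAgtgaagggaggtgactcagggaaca
Igtp: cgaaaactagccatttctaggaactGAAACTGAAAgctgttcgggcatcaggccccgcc

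The windows of Oas1a and Oas1g shared a stretch of 73 identical bases, and those of Ifit3 and Ifit3b 169. The genes of the last pair each had 2 matches. Of the 26 matches in all windows, 20 began within 160 bases before the start. Those of Eif2ak2, Ddx58 and Ifih1 lay after it, inside the transcribed region, as did the match in the second window of Trim30a, and their sequences are not shown.

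**Figure D1:**
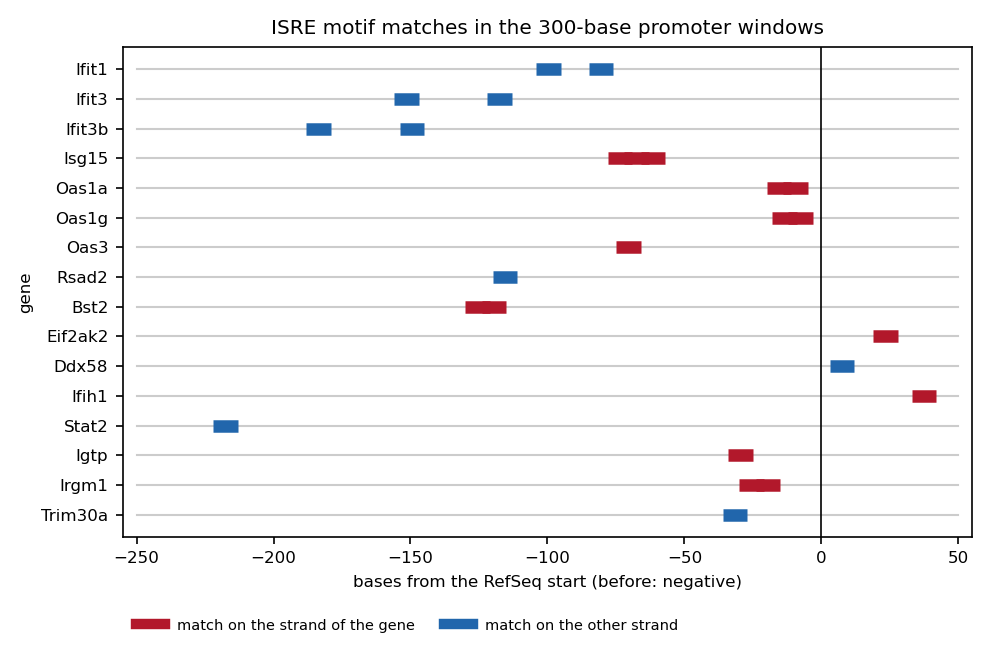
Position of each ISRE match (coloured bar) relative to the RefSeq start (vertical line, in bases) in the first promoter window of the 16 genes that had one; grey lines span the 300-base window. Most matches lie before the start, and those of Eif2ak2, Ddx58 and Ifih1 lie after it.

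The libraries held between 14356069 and 18957968 counts. The number of genes with a count was 21173 on average in the control group, 25080 with pamidronate and 27077 with pamidronate + GGOH, while mitochondrial genes took 10.6%, 4.21% and 5.98% of counts. All 10 macrophage markers were expressed, at a summed 25930 to 31213 TPM (a level corrected for transcript length) in the controls, 8525 to 12642 with pamidronate and 13531 to 19899 with pamidronate + GGOH, and 9 of the 10 fell with pamidronate. Osteoclast markers summed to 833 to 1320, 404 to 572 and 963 to 1338 TPM, and of the 7 that were tested 3 rose and 2 fell with pamidronate. Markers of fibroblasts, T cells, B cells, epithelial cells, endothelial cells and neutrophils summed to at most 4.39 TPM in any library, although no single marker was at 0 in all libraries. The plasmacytoid dendritic cell list, which includes Bst2, summed to 139 to 230 TPM. The part of these shifts in the results was not tested. In RNA from whole cultures, fewer cells of a type and less RNA per cell cannot be told apart.

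One library of the pamidronate + GGOH group stood apart. On the first principal component of all tested genes, controls lay between -93.3 and -79.3 and pamidronate libraries between 69.6 and 84.6. Replicates 1 and 2 of pamidronate + GGOH lay at 29.8 and 18.9, and replicate 3 at -11.5, nearest to the controls. Replicate 3 was also the highest of its group for 35 of the 37 tested interferon-stimulated genes (94.6%), against 38.7% of all tested genes. The exceptions were Ifit1 and Rsad2, for which replicate 3 was the lowest. The main counts and medians for this group are also given without it.

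Summed over the 37 genes, the level was 978, 994 and 1012 CPM in the 3 control libraries, 953, 882 and 779 with pamidronate, and 1161, 1377 and 1801 with pamidronate + GGOH. CPM here is the count relative to the library size after trimmed mean of M-values (TMM) scaling. All 3 pamidronate + GGOH sums lay above the other 6. Per transcript length, Bst2 had the highest level in the controls at 149 ± 7.3 TPM (SD, n = 3), ahead of Lgals3bp at 123 ± 30, and the difference between them was within their spread. With pamidronate + GGOH the highest was Ifi27l2a, at 304 ± 130 TPM, against 111 ± 15 in the controls and 152 ± 16 with pamidronate.

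**Figure D2:**
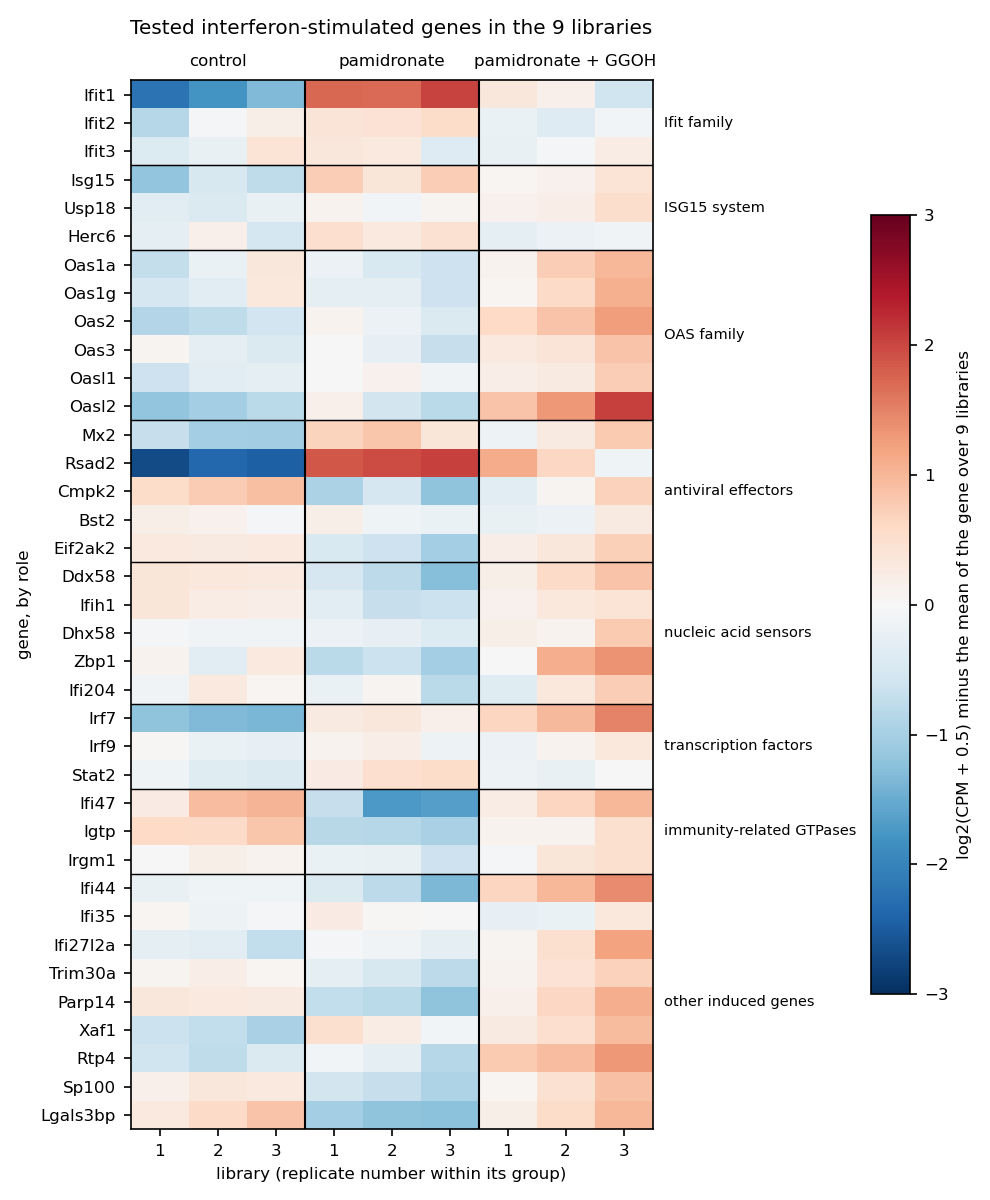
Level of the 37 tested genes (rows, by role) in the 9 libraries (columns), as log2(CPM + 0.5) minus the gene's mean over all libraries; red is above the mean and blue below. Most rows are darkest red in pamidronate + GGOH replicate 3, whereas Rsad2 and Ifit1 are darkest red with pamidronate alone.

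Pamidronate alone did not move these genes one way. At an adjusted p under 0.05 (edgeR quasi-likelihood test, Benjamini-Hochberg over all genes), 12 of the 37 (32.4%) were higher than in the controls, where 36.2% of all tested genes were, and 13 were lower, where 32.9% were. Both shares were near the background. The spread among the genes was wide, from a log2 fold change of -2.39 for Ifi47 to 4.62 for Rsad2, with a median of -0.10 (0.08 over all tested genes).

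Adding GGOH shifted most of them upward. Against pamidronate alone, 23 of 37 were higher with pamidronate + GGOH, a call that 25.2% of all genes received, and 5 were lower, a call that 23.6% received. The median log2 difference was 0.83, against 0.00 over all tested genes. Without pamidronate + GGOH replicate 3, 22 were higher and 5 lower, and the median was 0.61, against 0.06 over all tested genes. In that fit, 3980 of all 16502 tested genes were higher and 3019 lower. All 13 genes that had fallen with pamidronate rose when GGOH was added, and 10 of these 13 then did not pass the test against the controls. Of the 12 that had risen with pamidronate, 5 fell, 3 rose further and 4 did not pass the test. Both comparisons use the same pamidronate libraries, so genes picked for a low or high value there tend to move back. The same counts were not made over all genes.

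With all 9 libraries, many of the genes ended above their control level. Against the controls, 18 of 37 were higher with pamidronate + GGOH, where 26.3% of all genes were, and 1, Igtp, was lower, where 26.0% were. Without pamidronate + GGOH replicate 3 the counts were 13 and 3, and the median log2 difference was 0.15 instead of 0.37. In that fit, 4468 of all 16502 tested genes were higher and 4464 lower, with a median of 0.03. With upper-quartile scaling the numbers were 25 and 0, the added genes being Eif2ak2, Irf9, Stat2, Irgm1, Trim30a, Parp14 and Sp100 (edgeR; 26 and 0 at an unadjusted p under 0.05). That scaling also moves the median of all genes in this comparison from 0.02 to 0.23 and the higher calls from 50.3% to 69.2% of all calls. It called 5834 of all 15963 tested genes higher and 2600 lower.

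The group mean was highest with pamidronate + GGOH for 24 of the 37 genes, which held for 21.6% of all tested genes. In 10 of them, every pamidronate + GGOH library lay above the other 6 libraries (6.38% of all genes): Usp18, Oas2, Oas3, Oasl1, Oasl2, Dhx58, Irf7, Ifi44, Ifi27l2a and Rtp4. The test against both other groups was passed upward by 12 genes (32.4%), against 4.15% of all genes: Oas1a, Oas1g, Oas2, Oas3, Oasl1, Oasl2, Dhx58, Zbp1, Irf7, Ifi44, Ifi27l2a and Rtp4. Both tests use the same pamidronate + GGOH libraries. The genes were chosen with earlier results of these data known. How far that choice raised their shares over those of all tested genes was not tested. Of 36 tested interferon-induced genes outside the set, from a list chosen in the same way, 5 were called above both other groups. Without pamidronate + GGOH replicate 3, 6 of the 12 genes remained, namely Oas2, Oasl2, Irf7, Ifi44, Ifi27l2a and Rtp4. Without control replicate 2 the count was 7. Oas2, Oasl2, Irf7, Ifi44 and Rtp4 were called in every fit that was run at an adjusted p under 0.05. With pamidronate + GGOH replicate 3 left out, the group mean was highest there for 19 of the 37 genes instead of 24. In 10 genes all remaining libraries of that group then lay above the other 6.

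**Figure D3:**
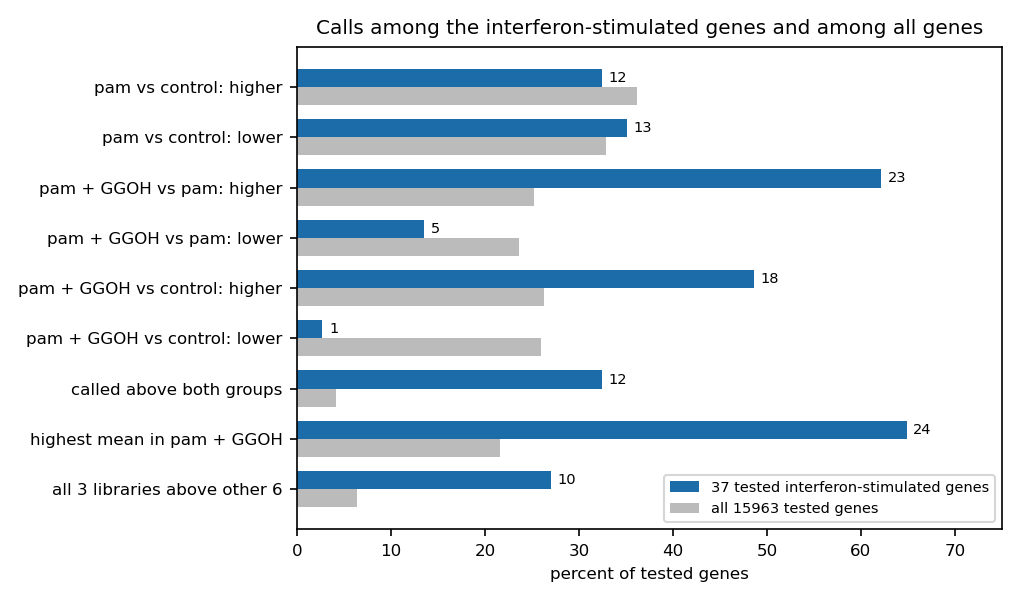
Percent of the 37 tested interferon-stimulated genes (blue, with the number of genes) and of all 15963 tested genes (grey) that met each criterion. The pairs of bars are of similar length for pamidronate against control and differ most for the criteria on pamidronate + GGOH. The interferon-stimulated genes were chosen with earlier results of these data known.

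The Ifit genes encode proteins that bind foreign RNA and block its translation, and the 4 studied here lie in a stretch of 99.3 kb on chromosome 19. Ifit1 and Ifit2 rose with pamidronate and fell when GGOH was added. Ifit1 (ENSMUSG00000034459, chr19:34640871-34650009, plus strand) stood at 0.701, 1.12 and 1.73 CPM in the controls, 17.9, 17.6 and 22.5 with pamidronate, and 6.64, 5.73 and 3.21 with pamidronate + GGOH. The 3 groups did not overlap, with the pamidronate libraries highest. The log2 fold change was 4.03 ± 0.31 (SE) for pamidronate against control, a 16.3-fold rise (edgeR adjusted p = 1.45e-07). It was -1.90 ± 0.26 for adding GGOH (adjusted p = 6.15e-05), and 2.13 ± 0.32 remained against the controls (adjusted p = 1.71e-04).

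Ifit2 stood at 8.06, 14.7 and 17.2 CPM in the controls, 19.9, 20.6 and 22.2 with pamidronate, and 13.1, 11.5 and 14.4 with pamidronate + GGOH. Its pamidronate libraries lay above the other 6, but the rise was smaller, with a log2 fold change of 0.65 ± 0.21 (adjusted p = 0.0158), and without pamidronate replicate 3 it was not called (adjusted p = 0.0545). The fall with GGOH, -0.69 ± 0.21, did not pass without pamidronate replicate 3, nor without replicate 1 or 2 of pamidronate + GGOH (adjusted p = 0.0601, 0.0594 and 0.0897). Ifit3 was near the detection limit, at 0.234, 0.336 and 0.804 CPM in the controls, 0.733, 0.696 and 0.248 with pamidronate, and 0.341, 0.436 and 0.631 with pamidronate + GGOH, and was not called in any comparison. Ifit3b had 1, 2 and 4 counts in the 3 groups. Ifit3 shares 51.2% of its 50-base words with Ifit3b, so the split of reads between them is uncertain.

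ISG15 is a ubiquitin-like protein attached to other proteins, Herc6 is the ligase that attaches it in the mouse, and Usp18 removes it and also dampens signalling at the interferon receptor. All 3 rose with pamidronate, as did 36.2% of all tested genes. Isg15 stood at 0.701, 1.46 and 1.11 CPM in the controls, 4.03, 3.04 and 4.09 with pamidronate, and 2.33, 2.49 and 3.10 with pamidronate + GGOH. Controls lay below both treated groups, which overlapped. The log2 fold change was 1.76 ± 0.28 for pamidronate (adjusted p = 5.79e-05), and -0.49 ± 0.25 on adding GGOH, which was not called (adjusted p = 0.122).

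Usp18 stood at 25.1, 23.4 and 27.1 CPM in the controls, 34.2, 30.0 and 33.3 with pamidronate, and 34.6, 36.6 and 45.6 with pamidronate + GGOH. The groups did not overlap and rose in that order. The pamidronate rise (log2 0.37 ± 0.12, adjusted p = 0.0109) was not called without control replicate 2 (adjusted p = 0.114) or with no filter (adjusted p = 0.0578), and the step to pamidronate + GGOH (0.26 ± 0.11, adjusted p = 0.0712) was called without control replicate 3 and without replicate 1 or 2 of pamidronate + GGOH, and with no filter. Herc6 stood at 3.91, 5.49 and 3.22 CPM in the controls, 7.09, 6.07 and 6.88 with pamidronate, and 3.86, 4.24 and 4.47 with pamidronate + GGOH. It was higher with pamidronate (0.66 ± 0.20, adjusted p = 0.00924), not called without control replicate 3 (adjusted p = 0.0728). With GGOH it was lower again (-0.67 ± 0.20, adjusted p = 0.0130), not called without pamidronate + GGOH replicate 1 (adjusted p = 0.0564). Herc6 shares exon sequence with Gm45193, so its counts are uncertain.

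The OAS enzymes make a short oligoadenylate that activates RNase L on sensing double-stranded RNA, and the OAS-like proteins Oasl1 and Oasl2 are their relatives. The 6 genes studied here, which are not the whole family of the mouse, had their highest mean with pamidronate + GGOH. That held for 21.6% of all tested genes. All 6 rose against pamidronate and all 6 against the controls, where 25.2% and 26.3% of all tested genes did. These calls held under the RLE and upper-quartile scalings, except that Oas1a was not called against the controls with RLE. Oasl2 (ENSMUSG00000029561, chr5:114896936-114912234, plus strand) showed the largest difference. It stood at 2.10, 2.41 and 2.84 CPM in the controls, 6.05, 3.48 and 2.85 with pamidronate, and 10.1, 14 and 23.8 with pamidronate + GGOH. The last group lay above the other libraries, with a log2 fold change of 1.95 ± 0.34 against pamidronate (adjusted p = 9.09e-04) and 2.70 ± 0.36 against the controls, a 6.52-fold difference (adjusted p = 1.68e-04). Without replicate 3 of that group the second value was 2.28. The pamidronate difference alone, 0.75 ± 0.39, was not called (adjusted p = 0.106), but passed without pamidronate + GGOH replicate 3 (adjusted p = 0.0351), with upper-quartile scaling, with no filter on low counts and with these 2 groups alone.

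Oas2 rose at each step, from 17.3, 18.8 and 21.3 CPM in the controls to 34.6, 28.1 and 23.5 with pamidronate and 48.4, 58.0 and 77.1 with pamidronate + GGOH. The first step was a log2 fold change of 0.59 ± 0.18 (adjusted p = 0.0123), lost when control replicate 1 or 2 or pamidronate replicate 1 was left out (adjusted p = 0.0548, 0.0638 and 0.0551). The second was 1.09 ± 0.18 (adjusted p = 3.45e-04). Its neighbour Oas3, 3.24 kb away, did not differ beyond the spread with pamidronate (-0.10 ± 0.22, adjusted p = 0.699) and was highest with pamidronate + GGOH, ranging from 120 to 179 CPM against 72.7 to 104 in the controls.

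Oas1a stood at 7.71, 11.4 and 16.8 CPM in the controls, 11.5, 9.30 and 8.30 with pamidronate, and 14, 22.2 and 26.4 with pamidronate + GGOH. Oas1g stood at 5.72, 6.44 and 10.5, then 6.84, 6.77 and 5.26, then 8.63, 12.5 and 17.9 CPM. For both, the pamidronate + GGOH libraries lay above those with pamidronate and overlapped the controls. Oas1a and Oas1g share 57.6% and 45.7% of their 50-base words with other genes, mainly each other, and they are not independent measurements. Oasl1, which limits the translation of Irf7 in the mouse, stood at 10.7, 13.4 and 13.5 CPM in the controls, 16.9, 18.3 and 15.5 with pamidronate, and 19.2, 20.2 and 28.3 with pamidronate + GGOH. Its groups did not overlap, but the step to pamidronate + GGOH (0.42 ± 0.15, adjusted p = 0.0336) was lost when any pamidronate library or pamidronate + GGOH replicate 3 was left out, and the step from control to pamidronate (0.43 ± 0.16, adjusted p = 0.0223) when control replicate 1 or 2 or pamidronate replicate 1 or 2 was.

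Against the controls, the calls of Oas1a, Oas1g and Oas3 rested on single libraries. Without pamidronate + GGOH replicate 3 their log2 differences were 0.58, 0.47 and 0.52, against 0.81, 0.79 and 0.73 with it, and none was called (adjusted p = 0.160, 0.122 and 0.0875). Leaving out control replicate 2 also ended all 3 calls. Control replicate 1 and pamidronate + GGOH replicate 2 each decided those of Oas1a and Oas1g, control replicate 3 that of Oas3, and any pamidronate library that of Oas1a. Both Oas1a and Oas1g also missed the threshold when the 2 groups were fitted alone (adjusted p = 0.0691 and 0.0565). For Oas1a, the rise against pamidronate was also lost without pamidronate replicate 2 or 3 (adjusted p = 0.0504 and 0.0615).

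Among the antiviral effectors, Rsad2 had the largest pamidronate response of all 37 genes. Rsad2 is viperin, an enzyme that turns CTP into a chain-terminating nucleotide. It (ENSMUSG00000020641, chr12:26442753-26456452, minus strand) stood at 3.15, 4.09 and 3.77 CPM in the controls, 85.4, 90.3 and 96.6 with pamidronate, and 50.5, 35.4 and 20.8 with pamidronate + GGOH. The 3 groups did not overlap. The rise was 24.7-fold (log2 4.62 ± 0.33, edgeR adjusted p = 4.15e-06). Adding GGOH lowered it by 1.35 ± 0.27 on the log2 scale, or 2.55-fold (adjusted p = 0.00363), which left a level 9.66-fold above the controls (adjusted p = 1.02e-04).

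Cmpk2, a mitochondrial nucleotide kinase that supplies CTP precursors, lies 12.8 kb from Rsad2 in the opposite orientation and went the other way. It (ENSMUSG00000020638, chr12:26469204-26479835, plus strand) stood at 6.25, 7.28 and 8.04 CPM in the controls, 1.89, 2.72 and 1.49 with pamidronate, and 3.18, 4.36 and 6.94 with pamidronate + GGOH. The pamidronate libraries lay below the other 6. Cmpk2 fell with pamidronate by 1.82 ± 0.29 on the log2 scale, or 3.53-fold (adjusted p = 5.89e-05), and rose by 1.25 ± 0.29 with GGOH (adjusted p = 0.00279). Against the controls the value of -0.57 ± 0.26 was not called (adjusted p = 0.0824), whereas without pamidronate + GGOH replicate 3 it was -0.95 and called (adjusted p = 0.00399), as it was with limma-voom and with no filter on low counts.

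**Figure D4:**
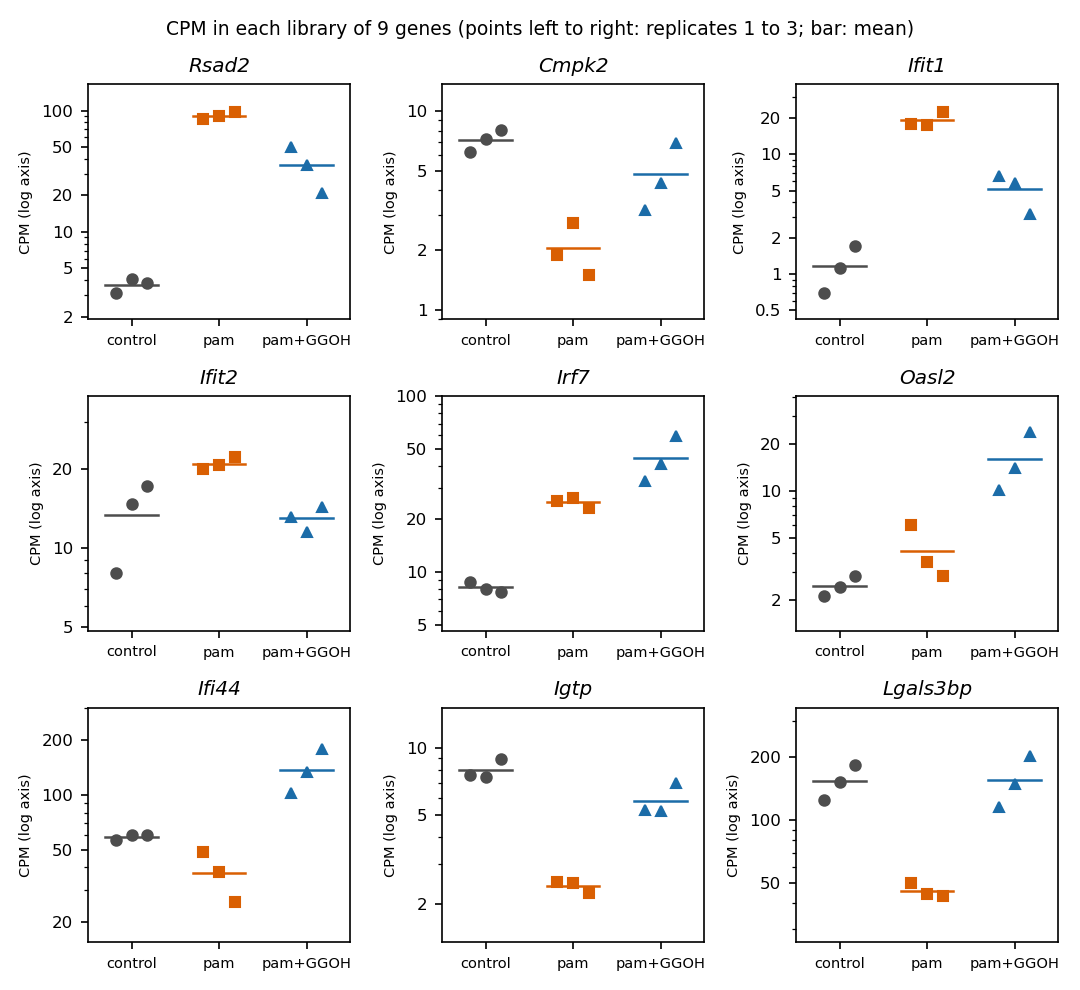
CPM (log axis) of 9 genes in each library; points from left to right are replicates 1 to 3 of the control, pamidronate (pam) and pamidronate + GGOH groups, and bars are group means. Rsad2 and Cmpk2 change in opposite directions, Irf7, Oasl2 and Ifi44 are highest with GGOH added, and Igtp and Lgals3bp are lowest with pamidronate alone.

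Mx2, a dynamin-like GTPase with antiviral activity, rose with pamidronate and stayed up. It stood at 2.45, 1.85 and 1.79 CPM in the controls, 7.03, 7.97 and 5.57 with pamidronate, and 3.80, 5.23 and 7.73 with pamidronate + GGOH. The treated groups overlapped each other and lay above the controls. The log2 fold change was 1.75 ± 0.27 for pamidronate (adjusted p = 3.77e-05) and -0.29 ± 0.24 for adding GGOH, which was not called (adjusted p = 0.341). Its relative Mx1 was barely detected, with 17, 5 and 24 counts in the control, pamidronate and pamidronate + GGOH groups.

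Eif2ak2, the kinase PKR that halts translation on binding double-stranded RNA, fell with pamidronate and rose when GGOH was added. With the main scaling it was then not called against the controls. It stood at 63.1, 62.4 and 63.2 CPM in the controls, 37.3, 33.3 and 25.3 with pamidronate, and 58.8, 65.6 and 84.9 with pamidronate + GGOH. The pamidronate libraries lay below the other 6, with a log2 fold change of -0.98 ± 0.15 (adjusted p = 6.47e-05) and a rise of 1.13 ± 0.15 with GGOH (adjusted p = 4.99e-05). Bst2, the surface protein tetherin, was at 63.0, 61.1 and 54.2 CPM in the controls, 62.9, 51.1 and 48.3 with pamidronate, and 47.7, 49.2 and 67.2 with pamidronate + GGOH. Its groups overlapped and no comparison was called, except that without pamidronate + GGOH replicate 3 the value against the controls was -0.31 (adjusted p = 0.0306).

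The RNA sensors RIG-I (Ddx58), MDA5 (Ifih1) and LGP2 (Dhx58), the Z-form nucleic acid sensor Zbp1 and the p200-family protein Ifi204 had their highest mean with pamidronate + GGOH. That held for 21.6% of all tested genes. Without pamidronate + GGOH replicate 3, only 3 of the 5 had a positive log2 difference from the controls, and 0 were called higher. Of the 5, 3 fell with pamidronate and none rose, and 4 rose when GGOH was added. Over all tested genes these shares were 32.9%, 36.2% and 25.2%, and 5 genes are too few to compare closely with them. Ddx58 stood at 69.5, 67.7 and 65.8 CPM in the controls, 37.8, 31.1 and 21.9 with pamidronate, and 61.1, 80.3 and 97.9 with pamidronate + GGOH. The pamidronate libraries were lowest, and the other groups overlapped. Ddx58 fell by 1.16 ± 0.21 on the log2 scale (adjusted p = 6.39e-04) and rose by 1.40 ± 0.21 (adjusted p = 3.78e-04).

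Ifih1 followed the same order, at 34.8, 31.4 and 31.3 CPM in the controls, 21.4, 16.5 and 17.2 with pamidronate, and 29.7, 33.9 and 36.2 with pamidronate + GGOH. It fell by 0.82 ± 0.12 (adjusted p = 2.49e-05) and rose by 0.85 ± 0.12 (adjusted p = 4.56e-05), with no call against the controls (0.03 ± 0.12, adjusted p = 0.819). Dhx58, an adjuster of both sensors, stood at 17.8, 17.0 and 17.0 CPM in the controls, 16.1, 15.4 and 13.8 with pamidronate, and 20.6, 19.9 and 32.0 with pamidronate + GGOH. Its pamidronate difference was not called (-0.20 ± 0.16, adjusted p = 0.292). The difference of pamidronate + GGOH from control, 0.49 ± 0.16 (adjusted p = 0.0186), fell to 0.21 without replicate 3 of that group (adjusted p = 0.145) and was also lost without control replicate 2 or 3.

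Zbp1 was low throughout, at 1.93, 1.29 and 2.29 CPM in the controls, 0.794, 0.949 and 0.619 with pamidronate, and 1.76, 4.30 and 5.26 with pamidronate + GGOH. Pamidronate libraries lay below all others. The fall of 1.21 ± 0.43 (adjusted p = 0.0209) was lost when control replicate 3 or pamidronate replicate 1 or 3 was left out (adjusted p = 0.0598, 0.0514 and 0.0764), while the rise of 2.25 ± 0.40 with GGOH (adjusted p = 3.55e-04) held in each of these fits. The difference from the controls, 1.04 ± 0.35 (adjusted p = 0.0234), was lost without control replicate 2, pamidronate + GGOH replicate 2 or pamidronate + GGOH replicate 3, the last leaving 0.70 (adjusted p = 0.113). With limma-voom neither the fall nor this difference was called (adjusted p = 0.0842 and 0.0640). Ifi204 stood at 11, 14.8 and 12.4 CPM in the controls, 10.3, 12.8 and 6.63 with pamidronate, and 9.14, 15 and 20.2 with pamidronate + GGOH. Its groups overlapped and it was not called, though without pamidronate + GGOH replicate 1 the difference on adding GGOH was (0.88, adjusted p = 0.00895), as it was with no filter on low counts. Ifi204 shares sequence with related genes of its family, which makes its counts uncertain.

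The 3 transcription factors in the set behaved differently from each other. Irf7, the factor that amplifies interferon production and is itself interferon-induced, rose at both steps. Irf7 (ENSMUSG00000025498, chr7:141262706-141266481, minus strand) stood at 8.76, 8.01 and 7.67 CPM in the controls, 25.2, 26.4 and 23.0 with pamidronate, and 32.8, 41.2 and 59.1 with pamidronate + GGOH. The groups did not overlap, and each pamidronate + GGOH library lay above the other 6. The log2 fold change was 1.61 ± 0.19 for pamidronate (adjusted p = 6.05e-06), 0.83 ± 0.17 for adding GGOH (adjusted p = 0.00144) and 2.45 ± 0.19 against the controls, a 5.45-fold difference (adjusted p = 1.51e-06). Without pamidronate + GGOH replicate 3 the last value was 2.17.

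Stat2, a subunit of ISGF3, rose with pamidronate and fell with GGOH. It stood at 40.8, 34.9 and 32.9 CPM in the controls, 53.5, 63.7 and 66.4 with pamidronate, and 40.5, 38.2 and 44.2 with pamidronate + GGOH. The pamidronate libraries lay above the other 6, with a log2 fold change of 0.76 ± 0.11 (adjusted p = 2.25e-05) and then -0.58 ± 0.11 (adjusted p = 5.16e-04). Irf9, the DNA-binding subunit, was at 33.4, 28.4 and 27.6 CPM in the controls, 35.2, 37.3 and 29.2 with pamidronate, and 28.9, 35.3 and 40.7 with pamidronate + GGOH. Its groups overlapped and it was not called with the main scaling and all libraries. Pamidronate + GGOH was called above the controls without replicate 1 of that group (0.34, edgeR adjusted p = 0.0444) and with upper-quartile scaling. The latter scaling also called the rise with pamidronate alone (0.38, edgeR adjusted p = 0.0158).

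Ifi47, Igtp and Irgm1 are immunity-related GTPases, induced mainly by interferon gamma, that act on membranes around intracellular pathogens. All 3 fell with pamidronate and rose with GGOH, where 32.9% of all tested genes fell and 25.2% rose. Ifi47 stood at 4.61, 7.78 and 8.22 CPM in the controls, 2.20, 0.822 and 0.867 with pamidronate, and 4.54, 6.29 and 8.2 with pamidronate + GGOH. Its fall of 2.39 ± 0.38 on the log2 scale, or 5.26-fold, was the largest of the 37 genes (adjusted p = 1.02e-04), and the rise with GGOH was 2.28 ± 0.38 (adjusted p = 3.28e-04). Controls and pamidronate + GGOH libraries overlapped, and both lay above pamidronate alone.

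Igtp stood at 7.59, 7.45 and 8.97 CPM in the controls, 2.51, 2.47 and 2.23 with pamidronate, and 5.28, 5.23 and 6.94 with pamidronate + GGOH. The groups did not overlap. Igtp fell by 1.73 ± 0.19 (adjusted p = 1.55e-06) and rose by 1.28 ± 0.19 (adjusted p = 8.67e-05), and it was the only one of the 37 called below the controls with pamidronate + GGOH (-0.46 ± 0.17, adjusted p = 0.0396). That last call was lost with upper-quartile scaling (-0.26) and without control replicate 2 or 3 or pamidronate + GGOH replicate 1 or 2 (values of -0.52, -0.38, -0.40 and -0.39). It was also lost with no filter, the stricter filter and the 2 groups fitted alone (adjusted p = 0.0565, 0.0516 and 0.0731). Igtp shares exon sequence with Irgm2.

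Irgm1 stood at 25.5, 28.4 and 27.0 CPM in the controls, 21.6, 21.3 and 16.1 with pamidronate, and 23.9, 32.6 and 35.0 with pamidronate + GGOH. Its fall with pamidronate, 0.45 ± 0.15 (adjusted p = 0.0130), was smaller and was not called without pamidronate replicate 3 (adjusted p = 0.0698) or with upper-quartile scaling. The latter scaling also made Irgm1 a higher call against the controls (0.38).

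The remaining 9 genes encode proteins of varied function. Of these, 5 fell and 1 rose with pamidronate, 7 rose and none fell when GGOH was added, and 4 ended above the controls. Over all tested genes, 32.9% fell and 36.2% rose with pamidronate. With GGOH added 25.2% rose and 23.6% fell, and 26.3% were above the controls. With 9 genes, such counts are too small to compare closely with these shares. Ifi44, a cytoplasmic protein of the antiviral programme, stood at 56.5, 60.2 and 60.3 CPM in the controls, 48.7, 38.0 and 25.8 with pamidronate, and 103, 133 and 178 with pamidronate + GGOH. The 3 groups did not overlap. Its fall with pamidronate (-0.65 ± 0.26, adjusted p = 0.0495) was lost in most fits that left out a library: each control library, pamidronate replicate 2 or 3, and pamidronate + GGOH replicate 2. With all libraries it was also lost with upper-quartile scaling, no filter, the stricter filter of 1 CPM in 3 libraries and the replicate block (adjusted p = 0.110, 0.127, 0.0504 and 0.0794). The rise with GGOH was 1.88 ± 0.26 (adjusted p = 4.92e-04), and the level was 2.34-fold above the controls (1.23 ± 0.25, adjusted p = 0.00402). Without pamidronate + GGOH replicate 3 the last log2 value was 0.98 (adjusted p = 0.0128).

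Rtp4, a chaperone-like protein of receptor transport, stood at 12.5, 11.2 and 14.1 CPM in the controls, 18.2, 15.9 and 10.3 with pamidronate, and 33.7, 36.9 and 47.8 with pamidronate + GGOH. Controls and pamidronate libraries overlapped, and the GGOH libraries lay clear above them. The log2 fold change was 1.41 ± 0.19 against pamidronate (adjusted p = 7.76e-05) and 1.65 ± 0.19 against the controls (adjusted p = 3.43e-05). The pamidronate difference of 0.23 ± 0.20 was called only without pamidronate replicate 3 (0.43, adjusted p = 0.0325). Part of the Rtp4 exons overlaps Gm45338.

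Xaf1, which promotes apoptosis by binding XIAP, stood at 9.64, 9.01 and 7.48 CPM in the controls, 21.5, 17.9 and 14.3 with pamidronate, and 18.3, 22 and 30.0 with pamidronate + GGOH. The controls were below both treated groups, which overlapped. It rose with pamidronate by 1.04 ± 0.20 (adjusted p = 3.76e-04). The further difference of 0.39 ± 0.19 was not called (adjusted p = 0.0992), but was without pamidronate replicate 1 or pamidronate + GGOH replicate 1 (adjusted p = 0.0450 and 0.0169).

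Parp14, an ADP-ribosyltransferase, and Lgals3bp, a secreted glycoprotein, fell with pamidronate and rose when GGOH was added. Parp14 stood at 81.4, 78.9 and 77.0 CPM in the controls, 38.0, 36.5 and 27.7 with pamidronate, and 71.0, 98.9 and 138 with pamidronate + GGOH. Lgals3bp stood at 125, 152 and 185, then 49.9, 44.2 and 43.3, then 116, 150 and 204 CPM. In both, pamidronate libraries lay below the other 6. The log2 fold changes with pamidronate were -1.21 ± 0.22 for Parp14 (adjusted p = 9.33e-04) and -1.75 ± 0.21 for Lgals3bp (adjusted p = 5.90e-05). Those on adding GGOH were 1.59 ± 0.22 (adjusted p = 3.49e-04) and 1.77 ± 0.21 (adjusted p = 1.28e-04). Against the controls Parp14, at 0.37 ± 0.21, was not called (adjusted p = 0.170), but was without pamidronate + GGOH replicate 1 (0.57, adjusted p = 0.00722) and with upper-quartile scaling.

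Sp100, a protein of PML nuclear bodies, and Trim30a, an adjuster of Toll-like receptor signalling, also fell with pamidronate (-0.997 ± 0.18 and -0.63 ± 0.15) and rose with GGOH (1.24 ± 0.18 and 0.95 ± 0.15). Sp100 ranged from 15.1 to 19.6 CPM with pamidronate against 32.5 to 36.9 in the controls, and Trim30a from 22.3 to 31.4 against 40.6 to 44.3. Neither was called against the controls with pamidronate + GGOH, except without pamidronate + GGOH replicate 1 (0.42 and 0.46) and with upper-quartile scaling. Ifi27l2a ranged from 18.4 to 25.5 CPM in the controls, 25.6 to 30.4 with pamidronate and 32.9 to 71.8 with pamidronate + GGOH. Its rise with GGOH (0.80 ± 0.27, adjusted p = 0.0361) was lost without control replicate 1 or any pamidronate library, and with the replicate block, limma-voom and no filter (adjusted p = 0.0653, 0.0594 and 0.0775). That against the controls (1.11 ± 0.27, adjusted p = 0.00862) was still called without pamidronate + GGOH replicate 3, at 0.72. Ifi35 ranged from 11.6 to 17.3 CPM over all 9 libraries, and no comparison was called with the scaling used here.

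**Figure D5:**
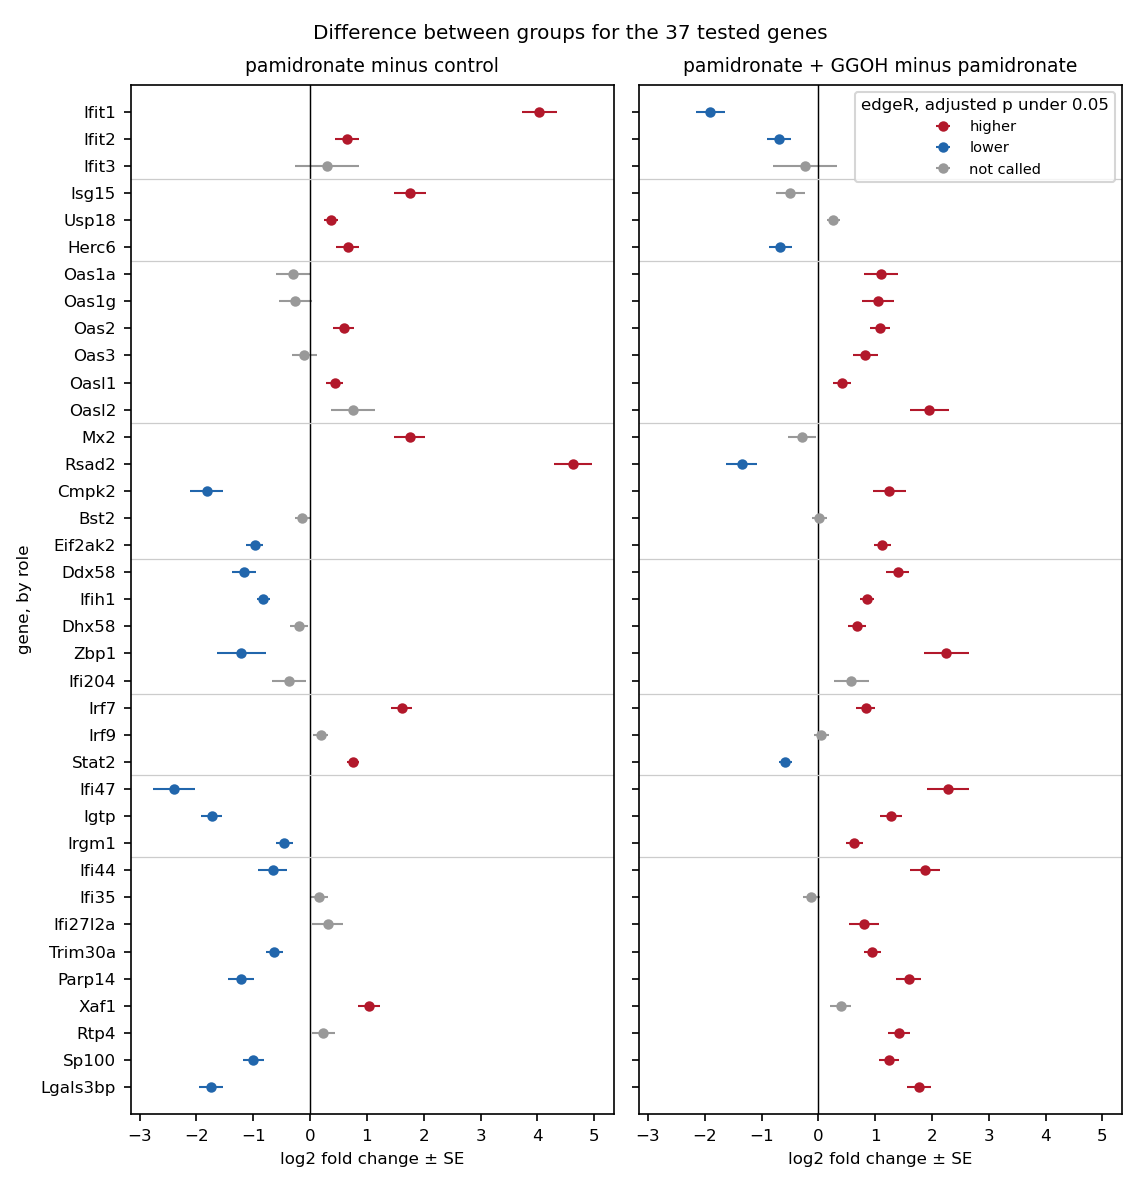
Log2 fold change ± SE of the 37 tested genes (rows, by role) for pamidronate minus control (left) and pamidronate + GGOH minus pamidronate (right), coloured by edgeR call; the panels share the pamidronate libraries. Rsad2 and Ifit1 lie far to the right in the left panel, and all 6 OAS genes and all 3 immunity-related GTPases lie to the right of 0 in the right panel.

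The ISRE match was found in genes of every response class. It was present in 4 of the 9 matched genes that rose with pamidronate, in 6 of 11 that fell, in 5 of 8 that were not called and in 3 of 7 called above both other groups with pamidronate + GGOH. Promoters of Oasl1, Oasl2, Irf7 and Ifi44, all in the last class, had no match in the window. These counts are too small to compare, and no match says only that the letters are not in this window.

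Upstream of these genes, interferon transcripts themselves were at the limit of detection. None of the 14 listed interferon genes had enough counts to be tested, and 5 had 0 counts in all 9 libraries. Ifnb1, the type I interferon that macrophages make first, had 0 counts in each control library, 5, 6 and 3 with pamidronate, and 2, 1 and 1 with pamidronate + GGOH. These counts are too low for a fold to be given.

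Most interferon receptor and JAK-STAT genes fell with pamidronate: of 14 tested, 10 fell and 1 rose. With GGOH added, 5 rose and 1 fell, and against the controls 11 were lower and 1 higher. With upper-quartile scaling 8 fell with pamidronate and 7 were below the controls with pamidronate + GGOH. Of all 15963 tested genes, 4317 and 2600 did so with that scaling. With the main scaling, 32.9% of all tested genes fell with pamidronate, 25.2% rose with GGOH added and 26.0% were below the controls. The receptor chains Ifnar1 and Ifnar2 had log2 fold changes of -0.24 ± 0.09 and -0.69 ± 0.11 with pamidronate, and -0.71 ± 0.09 and -0.64 ± 0.11 with pamidronate + GGOH against control. Tyk2 fell by 1.36 ± 0.11 and rose by 0.80 ± 0.11. Jak1 was not called with pamidronate (-0.16 ± 0.08). The 1 gene that rose was Socs1, an inhibitor of the same kinases, by 1.62 ± 0.27 with pamidronate and 1.53 ± 0.27 against the controls with pamidronate + GGOH.

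Of the 9 other interferon regulatory factor genes tested, 8 fell and 1 rose with pamidronate, in contrast to Irf7. Over all tested genes, 32.9% fell and 36.2% rose. Irf1, Irf3, Irf5 and Irf8 had log2 fold changes of -1.83 ± 0.19, -0.77 ± 0.10, -1.71 ± 0.17 and -1.19 ± 0.12. All 4 rose with GGOH, by 0.36 to 0.92, and stayed below the controls, with log2 differences of -0.92 to -0.30.

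Among 17 tested adaptors, kinases, receptors and other genes of innate sensing, 9 fell and 2 rose with pamidronate. When GGOH was added 10 rose and 2 fell. Over all tested genes, 32.9% fell and 36.2% rose with pamidronate, and 25.2% rose and 23.6% fell with GGOH. With upper-quartile scaling 7 rose and 8 fell with pamidronate, where 7003 and 4317 of all 15963 tested genes did. Tlr3, which senses double-stranded RNA in endosomes, fell by 3.53 ± 0.28 and rose by 3.09 ± 0.28. Tlr4, the lipopolysaccharide receptor, fell by 2.88 ± 0.15 and rose by 2.38 ± 0.15, and Tmem173, which encodes STING, fell by 3.03 ± 0.27 and rose by 2.17 ± 0.27. Mavs, the adaptor of Ddx58 and Ifih1, fell by 1.03 ± 0.10 and rose by 0.30 ± 0.10. The DNA sensor cGAS (Mb21d1) was not called with pamidronate (0.22 ± 0.11), and the kinase Tbk1 fell by 0.21 ± 0.08.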

How the data were processed

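Total RNA of RAW 264.7 cells was sequenced in 9 libraries after ribosomal RNA removal. The submitters' processing notes name Trimmomatic 0.36, DESeq and the GRCm38 build. The aligner, the counting tool and its strand setting were not given in the sources used here. Reads of antisense or overlapping genes therefore cannot be told apart. The authors deposited raw counts per gene, the values used in all tests, and TPM values, used only for levels. The percentage written in the pamidronate + GGOH library names is unexplained. The labels give 1 batch for all samples. They call the controls biological replicates, but do not say that the other libraries came from separate cultures, so p-values measure the spread between these samples, which may be technical. No library was a copy of another, since replicates differed by more than counting error.

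Counts were tested with edgeR 4.0.16 (R 4.3.3): filterByExpr, TMM factors, a quasi-likelihood fit of 3 group means over all 9 libraries, and Benjamini-Hochberg adjustment over 15963 genes, called at an adjusted p under 0.05. The fit was tested on simulated data. Other fits used RLE or upper-quartile factors, all genes unfiltered, a filter of 1 CPM in 3 libraries, a replicate block, 2 groups alone, each library left out, DESeq2 1.42.0, limma-voom 3.58.1 and an adjusted p under 0.01. Where a left-out library is named as ending or making a call, the edgeR fit was repeated without it. CPM is on TMM-scaled library sizes. The SE of a log2 fold change was derived from the test, as its absolute value divided by the square root of the quasi-likelihood F statistic. All 39 genes could be named. Per role, up to 5 with the largest change are given by library and the others by range. Of the pathway lists, 17 preset genes and up to 3 of the most changed called genes per comparison could be named. The 39 genes and all lists were chosen with earlier results of these data known.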

Additional observations from a re-analysis of the deposited data

How the results depend on the processing

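No called log2 fold change of the 37 genes changed sign under any alternative. The balance of higher and lower genes for pamidronate against control did turn, from 12 and 13 to 15 and 11 with upper-quartile factors and 12 and 10 without pamidronate replicate 3, and the median went from -0.10 to 0.09 with upper-quartile factors. Over all 15963 tested genes, upper-quartile factors moved the higher and lower calls from 5784 and 5258 to 7003 and 4317. Of the calls among the 37 genes, 17 of 25 for pamidronate against control, 22 of 28 for pamidronate + GGOH against pamidronate and 13 of 19 for pamidronate + GGOH against control held in every alternative. The number lower with pamidronate + GGOH than with pamidronate, 5, was 3 at an adjusted p under 0.01 and 3 to 5 when a library was left out, 3 without pamidronate + GGOH replicate 1. The number lower than the controls, 1, was 0 with upper-quartile factors, with the stricter filter, with 2 groups alone and at an adjusted p under 0.01, 2 with limma-voom, and 0 to 3 when a library was left out (all others edgeR). At an unadjusted p under 0.05, the first 3 of these settings gave 0, 1 and 1. The number called above both other groups, 12, was 5 at an adjusted p under 0.01, 6 without pamidronate + GGOH replicate 3, 7 without control replicate 2 and 17 with upper-quartile factors, and ranged from 6 to 17 over left-out libraries. The number with all pamidronate + GGOH libraries above the other 6, 10, ranged from 10 to 21, the highest without pamidronate + GGOH replicate 1. The cause of these changes was not tested.

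The labels number the replicates but do not say whether a number marks a shared culture. Same-numbered libraries correlated between -0.22 and 0.20 in their deviations from the group means, and differently numbered ones between -0.22 and 0.18. Deviations within a group depend on each other, so these values cannot settle whether libraries were paired. With a replicate block, 12 genes were higher and 12 lower for pamidronate against control, 22 and 5 for adding GGOH, 18 and 1 against the controls, and 11 were above both. Members with few counts, such as Ifit3, Zbp1 and Isg15, are limited by depth.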

Other observations

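A longer list of interferon-induced genes outside the 39 was also examined. Of 36 tested, 22 fell and 6 rose with pamidronate, 21 rose and 3 fell when GGOH was added, and 7 were above and 8 below the controls with pamidronate + GGOH. With upper-quartile scaling the last counts were 16 and 8, where 5834 and 2600 of all 15963 tested genes were above and below. The median log2 difference from the controls was 0.03, or 0.23 with that scaling. With the main scaling, 32.9% of all tested genes fell and 36.2% rose with pamidronate. On adding GGOH 25.2% rose and 23.6% fell, and 26.3% were above and 26.0% below the controls. Of the 36, 13 had their highest mean with pamidronate + GGOH (21.6% of all tested genes). In 8, every library of that group lay above the other 6 (6.38%), and 5 were called above both other groups (4.15%). Cxcl10, a chemokine, rose with pamidronate by 2.38 ± 0.35 on the log2 scale and fell by 1.51 ± 0.32 with GGOH (edgeR adjusted p = 2.41e-05 and 0.00122). Samd9l fell by 2.63 ± 0.29 and rose by 2.55 ± 0.29. The guanylate-binding protein gene Gbp7 was not called with pamidronate (-1.16 ± 0.85) and rose by 3.53 ± 0.69 with GGOH, to 2.37 ± 0.59 above the controls. Ifitm2, which blocks viral entry, fell by 2.40 ± 0.21 and stayed 1.57 below the controls on that scale with pamidronate + GGOH. Macrophage markers fell in the same libraries, as given above, and their part in these changes was not tested.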
